A study of Mus musculus with 6 samples.

Results

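The genes described here are 10 genes of the circadian clock, Per1, Per2, Per3, Cry1, Cry2, Clock, Nr1d1, Nr1d2, Dbp and Bhlhe40, measured in mouse embryo fibroblasts on Affymetrix mouse genome arrays. They are 10 of the 18193 genes that have a probe set with a single symbol. Their probe sets were chosen by symbol: 22 of the 45101 probe sets on the array carry 1 of these symbols and no other. The brightest probe set of each gene gave its main value. The list of genes was drawn up with earlier results of these data known. The cells were primary cultures from embryos of the ICR strain at embryonic day 15.5. The cultures are labelled 1 and 2, and whether each came from 1 embryo or from several is not given in the sources used here. Each culture was measured once in each of 3 groups, which made 6 arrays. Control cells stayed at 37 °C with no agent. LPS cells received lipopolysaccharide, a bacterial cell wall component that activates innate immune signalling, at 1 μg/ml for 4 h. HS+LPS cells spent 1 h at 42 °C before the same LPS treatment. The labels name no genetic change, and all cells grew in medium with serum. Per its title, the study asked which inflammatory genes are suppressed by heat shock. No array here had heat shock without LPS, so heat shock alone cannot be told apart from heat shock combined with LPS. The time of day at harvest and any synchronisation of the cultures are not given in the sources used here.

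The mammalian clock is a transcription loop present in most cells, cultured fibroblasts included. CLOCK and its partner BMAL1, encoded by Arntl, bind E-box sequences and switch on the Per and Cry genes, whose proteins return to the nucleus and repress CLOCK and BMAL1. An interlocking loop is formed by the nuclear receptors REV-ERBα (Nr1d1) and REV-ERBβ (Nr1d2), which repress Arntl, and by the ROR receptors, which activate it through the same response elements. DBP is an output activator that binds D-boxes, and BHLHE40, also named DEC1, is an E-box repressor that many extracellular stimuli induce. Serum, glucocorticoids and temperature changes are known to reset the clock of cultured fibroblasts, and Per1 is a classical early responder to such signals.

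Upstream sequence from RefSeq (GRCm38.p6) was available for 8 of the 10 genes. The 250 bases before each annotated start were searched on both strands for 5 motifs of clock or stress regulation, over 11 windows because a gene can have several starts. The motifs were the E-box CACGTG, the D-box TTATGTAA, the cyclic AMP response element TGACGTCA, the nuclear receptor core AGGTCA, which is part of the element that REV-ERB and ROR receptors bind, and GAANNTTC, the core of a heat shock element. None of these sets of letters contains another. The windows of 5 genes are printed 5′ to 3′, with motif matches in capitals, because these genes stand for the arms of the loop described next: period and cryptochrome repressors, REV-ERBα and the D-box activator. Per1 lies at chr11:69098699-69098948 on the plus strand, Cry1 at chr10:85185055-85185304 on the minus strand, Per3 at chr4:151044666-151044915 on the minus strand, Nr1d1 at chr11:98775378-98775627 on the minus strand and Dbp at chr7:45704997-45705246 on the plus strand.
Per1: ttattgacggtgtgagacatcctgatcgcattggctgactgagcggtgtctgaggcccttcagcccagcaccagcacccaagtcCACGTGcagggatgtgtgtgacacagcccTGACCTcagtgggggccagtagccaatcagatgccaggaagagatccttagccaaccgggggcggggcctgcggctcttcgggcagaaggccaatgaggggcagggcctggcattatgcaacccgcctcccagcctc
Cry1: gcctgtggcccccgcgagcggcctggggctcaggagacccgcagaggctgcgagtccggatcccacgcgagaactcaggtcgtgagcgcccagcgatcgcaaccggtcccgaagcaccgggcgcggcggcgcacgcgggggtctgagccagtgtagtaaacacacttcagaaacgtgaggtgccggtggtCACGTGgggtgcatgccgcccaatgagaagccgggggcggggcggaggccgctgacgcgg
Per3: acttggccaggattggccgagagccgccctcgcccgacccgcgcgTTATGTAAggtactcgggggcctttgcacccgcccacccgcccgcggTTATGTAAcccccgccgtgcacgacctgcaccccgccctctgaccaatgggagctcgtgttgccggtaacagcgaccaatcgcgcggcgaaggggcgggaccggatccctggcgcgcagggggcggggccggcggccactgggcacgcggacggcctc
Nr1d1: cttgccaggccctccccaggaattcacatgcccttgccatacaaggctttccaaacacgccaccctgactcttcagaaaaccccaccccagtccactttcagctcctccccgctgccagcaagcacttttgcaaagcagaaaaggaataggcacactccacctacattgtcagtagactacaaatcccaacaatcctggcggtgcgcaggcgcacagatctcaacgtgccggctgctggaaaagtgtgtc
Dbp: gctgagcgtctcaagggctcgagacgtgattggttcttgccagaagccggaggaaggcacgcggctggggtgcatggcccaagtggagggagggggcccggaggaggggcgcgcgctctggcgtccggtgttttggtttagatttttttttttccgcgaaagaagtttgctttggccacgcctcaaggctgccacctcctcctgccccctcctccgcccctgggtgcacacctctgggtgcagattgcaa
The printed window of Per1, that of 1 of its 2 annotated starts, held an E-box whose first base lay 166 bases before the start, and a receptor core, read as TGACCT on the printed strand, 137 bases before it. Cry1 held an E-box 60 bases before the start. Per3 held 2 D-boxes, 205 and 158 bases before the start. The windows of Nr1d1, Dbp and the other Per1 start held none of the 5 motifs. Of the windows not printed, Nr1d2 and 1 start of Clock held a receptor core, 77 and 119 bases before the start. No window of these 8 genes matched GAANNTTC or TGACGTCA. Over 32851 upstream windows of the same length in the RefSeq table, 6.02% held CACGTG, 0.819% held TTATGTAA, 1.55% held TGACGTCA, 14% held AGGTCA and 6.69% held GAANNTTC. These matches describe the letters in the windows and were not tested for binding.

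All 10 clock genes were detected by their brightest probe sets, which read above the noise level on all 6 arrays. The noise level was the brightest of 27 Bacillus subtilis control probe sets on an array, between 6.004 and 7.67 units. The other Per3 probe sets were above noise on only 2 or 3 arrays, and those of Per2 on 5 and 3. Intensities are the authors' scaled values, on which each array has a trimmed mean of 100. Differences were tested on log2(intensity + 3.37) with limma over 12917 genes and adjusted by Benjamini-Hochberg, and a gene was called at an adjusted p under 0.05. The level of 1 probe set was not compared with that of another, since probes differ in brightness. Both cultures were carried through all 3 groups, so genes were fitted without the culture and with the culture as a block. Counts of genes called are given from both fits. A single p-value or SE is from the fit without the culture unless the culture is named. In a culture, fewer cells of a type and less RNA per cell cannot be told apart. With 2 arrays per group, the p-values without the culture set a difference against the spread between these cultures. Those with the culture as a block set it against how far group differences varied from 1 of these cultures to the other. In both fits the spread of a gene was also drawn toward that of genes of like intensity.

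Of 10 fibroblast markers, among them Col1a1, Pdgfra and Thy1, 10 were above noise on all 6 arrays, with summed intensities of 26960 to 36780 in Control, 28600 to 32000 in LPS and 28350 to 32920 in HS+LPS. These sums are carried by Vim, Fn1 and the collagens, and single markers differed between groups and cultures. Pdgfra, a growth factor receptor gene, read 302 and 1036 in Control, 198 and 1309 with LPS, and 117 and 573 with HS+LPS, and Pdgfrb read 1554 and 1475, 1608 and 1549, and 883 and 911 in the same order. By these brightest probe sets, both were lower in HS+LPS than in LPS in both cultures. The dimmest Pdgfra probe set was lower in culture 1 but read 110.5 with LPS and 123.4 with HS+LPS in culture 2. The remaining Pdgfra probe set was lower in both cultures. The cultures also stood apart: in Control, Lum read 119 in culture 1 and 1699 in culture 2, and Dcn, like Lum a matrix proteoglycan gene, 333 and 1862. These 4 genes were singled out after their values were seen, and the part of these differences in the clock gene results was not tested. Array medians lay between 11.9 and 14.4 units. Markers of other cells were also read. Of 6 epithelial markers, 2 were above noise on all arrays and Cdh1 was under noise on all; their summed intensity was 54.3 to 61.3 in Control, 52.2 to 96.3 in LPS and 89.3 to 126 in HS+LPS. Of 6 neural and glial markers, 5 were above noise on all arrays and Snap25 under noise on all, with sums of 403 to 519, 306.0 to 462 and 486 to 687. Of 5 endothelial markers, 2 were above noise on all arrays and Pecam1 and Tie1 under noise on all, with sums of 36.2 to 43.6, 23.1 to 47.8 and 47.3 to 58.1.  The 6 macrophage markers summed to 215 to 392, 194 to 367 and 203 to 321, with 4 above noise on all arrays and Itgam under noise on all. The 5 skeletal muscle markers summed to 65.1 to 86.0, 62.5 to 87.3 and 70.4 to 140.4, with 2 above noise on all arrays and Myh3 under noise on all. For the epithelial, neural, endothelial and muscle lists the highest sum was in an HS+LPS array, and their part in the HS+LPS results of the clock genes was not tested.

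After heat shock and LPS, the E-box repressor Bhlhe40 stood at 3.07 times its level with LPS alone, and Nr1d1 at 1.69 times, while Clock and Cry2 differed by -0.024 and -0.019 log2 units. In the fit without the culture, 0 of the 10 genes were called in HS+LPS against LPS, where 1.34% of all genes were called. In that fit 2 of the 10, Bhlhe40 and Per2, had an unadjusted p under 0.05, beside 2165 of the 12917 genes tested. With the culture as a block, Bhlhe40 and Nr1d1 rose, 2 of 10, and none fell. In the same fit 18.9% of all genes were called, 6.32% as higher and 12.6% as lower. The median difference of the 10 genes was 0.24 log2 units, and that of all genes tested was -0.049. In 3 of the 10 genes, Bhlhe40, Per1 and Per2, both HS+LPS arrays lay above both LPS arrays, beside 46.7% of all genes whose groups did not overlap in either direction. The difference between the clock genes and the other genes was not tested.

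**Figure D1:**
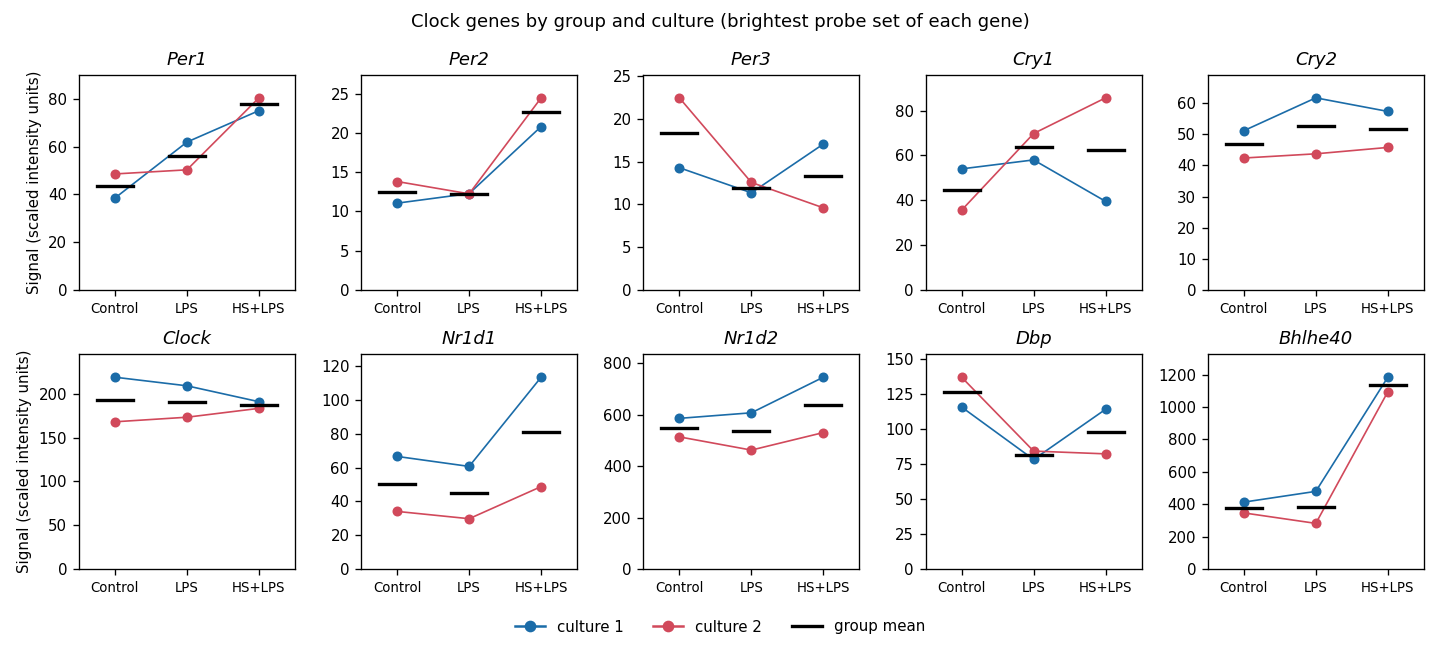
Scaled intensity of the brightest probe set of each of the 10 clock genes, 1 panel per gene with its own linear axis from 0. Points are single arrays lines join the arrays of 1 culture through Control, LPS and HS+LPS, and black bars are group means; Bhlhe40 reads 1184 and 1094 in HS+LPS, and Nr1d1 is higher in culture 1 in every group.

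Bhlhe40 had the largest difference of the 10 genes in both comparisons with HS+LPS. It read 414 and 347 units in Control (cultures 1 and 2), 480.2 and 283 with LPS, and 1184 and 1094 with HS+LPS. Both HS+LPS arrays lay far above the other 4, which overlapped each other. The group means were 381 ± 47.0 in Control, 381 ± 140 with LPS and 1139 ± 63.6 with HS+LPS (SD, n = 2). Against LPS the difference was 1.62 log2 units (SE 0.26, 95% interval 0.99 to 2.24), 1.30 in culture 1 and 1.94 in culture 2, and it just missed the threshold of the fit without the culture (limma, adjusted p = 0.0511). With the culture as a block the adjusted p was 0.000171, and it ranged from 6.53e-11 to 0.226 over 18 alternatives. The gene ranked 85 of 12917 by upward difference, and 1.5% of genes had a larger difference in either direction. Against Control the difference was 1.58 (2.98-fold; adjusted p = 0.0781 without and 0.000366 with the culture, 1.98e-10 to 0.407 over the alternatives). LPS alone against Control gave -0.041 (95% interval -0.665 to 0.584 without the culture and -0.36 to 0.27 with it). By culture the difference was 0.213 in culture 1 and -0.294 in culture 2.

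The genes whose profile over the 6 arrays was most like that of Bhlhe40, by Pearson correlation of log2 values among 12916 genes, were Otud1 (r = 0.997), Map2k3os (r = 0.994) and Krtap1-5 (r = 0.993). Otud1, which encodes a deubiquitinase, read 37.8 and 32.6 in Control, 47.5 and 27.1 with LPS, and 118 and 121 with HS+LPS. Like Bhlhe40, it was higher in culture 1 than in culture 2 with LPS and about level between cultures after heat shock. Krtap1-5, a keratin-associated protein gene, read 8.39 and 6.43 in Control, 9.98 and 1.23 with LPS, and 90.4 and 97.8 with HS+LPS. The noise level was 7.52 and 6.38 in Control and 6.004 and 7.22 with LPS. The Krtap1-5 readings without heat shock were thus near noise or, with LPS in culture 2, under it. These correlations describe 6 arrays that share the heat shock contrast.

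The REV-ERB receptors form the negative arm on Arntl. Nr1d1 read 66.6 and 34.1 in Control, 60.7 and 29.8 with LPS, and 113 and 48.8 with HS+LPS. Culture 1 lay above culture 2 in every group, by 0.90, 0.95 and 1.16 log2 units, which is more than the difference between groups, so the groups overlapped. Within each culture the HS+LPS array was the highest, by 0.87 and 0.65 log2 units over LPS. The mean difference was 0.76 (1.69-fold; SE 0.53, adjusted p = 0.54 without the culture), and with the culture as a block the SE was 0.17, the 95% interval 0.37 to 1.15 and the adjusted p = 0.0172, over alternatives from 0.0085 to 0.901. Because the cultures differ in level, leaving out an array moved the value: it was 0.18 without HS+LPS of culture 1, 0.28 without LPS of culture 2, 1.23 without LPS of culture 1 and 1.34 without HS+LPS of culture 2. Against Control the difference was 0.61 (1.52-fold; block interval 0.22 to 1.00, adjusted p = 0.043 with the culture and 0.666 without it, over alternatives from 0.0275 to 0.989), and it was 0.026 without HS+LPS of culture 1, 0.16 without Control of culture 2, 1.06 without Control of culture 1 and 1.19 without HS+LPS of culture 2.

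Nr1d1 overlaps the thyroid hormone receptor gene Thra in the RefSeq gene table. The brightest Thra probe set read 141, 133 and 145 in culture 1 and 230, 221 and 285 in culture 2 (Control, LPS, HS+LPS). Thra was thus higher in culture 2, where Nr1d1 was lower. Like Nr1d1, this probe set was higher in HS+LPS than in LPS in both cultures, by 0.13 and 0.36 log2 units. The dimmest Thra probe set was lower in culture 1 (-0.145) and higher in culture 2 (0.40), and the remaining one was higher in both. The part of Thra in the Nr1d1 value was not tested.

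Nr1d2, the other REV-ERB gene, read 586 and 514 in Control, 608 and 463 with LPS, and 746 and 531 with HS+LPS. The groups overlapped, and HS+LPS was the highest array of each culture. Its difference from LPS was 0.24 log2 units (SE 0.21, adjusted p = 0.634; with the culture, interval 0.035 to 0.46, adjusted p = 0.0978), and it was not called. A dimmer Nr1d2 probe set gave a mean of 0.20, but the cultures parted, with 0.455 in culture 1 and -0.054 in culture 2.

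The period genes encode the main repressors of the loop. Per1 read 38.5 and 48.6 in Control, 61.9 and 50.3 with LPS, and 75.1 and 80.5 with HS+LPS. The 3 groups did not overlap, with Control lowest and HS+LPS highest in both cultures. The means were 43.5 ± 7.15, 56.1 ± 8.23 and 77.8 ± 3.79 (SD, n = 2). HS+LPS against Control gave 0.80 log2 units (1.74-fold; SE 0.21), with adjusted p = 0.151 without the culture and 0.0225 with it (interval 0.37 to 1.23; 0.00588 to 0.469 over the alternatives). Each single step was smaller and was not called: 0.34 from Control to LPS (adjusted p = 0.999, and 0.437 with the culture) and 0.45 from LPS to HS+LPS (0.343 and 0.13).

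Per2 was dim, at 11.1 and 13.8 in Control, 12.3 and 12.2 with LPS, and 20.8 and 24.5 with HS+LPS. Both HS+LPS arrays stood above the other 4. The difference from LPS was 0.73 log2 units (1.66-fold; SE 0.26, unadjusted p = 0.0323, adjusted p = 0.246 without and 0.117 with the culture) and was not called. It rested on 1 probe set: the other Per2 probe set that passed the filter differed by 0.084. Per3 read 14.3 and 22.4 in Control, 11.4 and 12.6 with LPS, and 17.1 and 9.59 with HS+LPS. Both LPS arrays lay under both Control arrays (-0.48, SE 0.36, adjusted p = 0.999), and the HS+LPS arrays moved apart. The 5 Per3 probe sets that passed the filter did not share a direction, ranging from -0.75 to 0.47 for LPS against Control. Per3 overlaps Uts2 in the RefSeq gene table, and no probe set of Uts2 passed the filter.

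The cryptochromes are the partners of the PER proteins. Cry1 read 54.0 and 35.6 in Control, 58.0 and 69.8 with LPS, and 39.5 and 85.7 with HS+LPS. The cultures went opposite ways after heat shock, -0.52 in culture 1 and 0.28 in culture 2, and the mean difference from LPS was -0.12 (SE 0.39, adjusted p = 0.924). LPS against Control gave 0.50 (SE 0.39, adjusted p = 0.999 without and 0.507 with the culture). Cry2 read 51.2 and 42.4, 61.7 and 43.7, and 57.4 and 45.8 in the same order, higher in culture 1 throughout. Its differences were 0.15 for LPS against Control and -0.019 for HS+LPS against LPS, and neither was called.

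**Figure D2:**
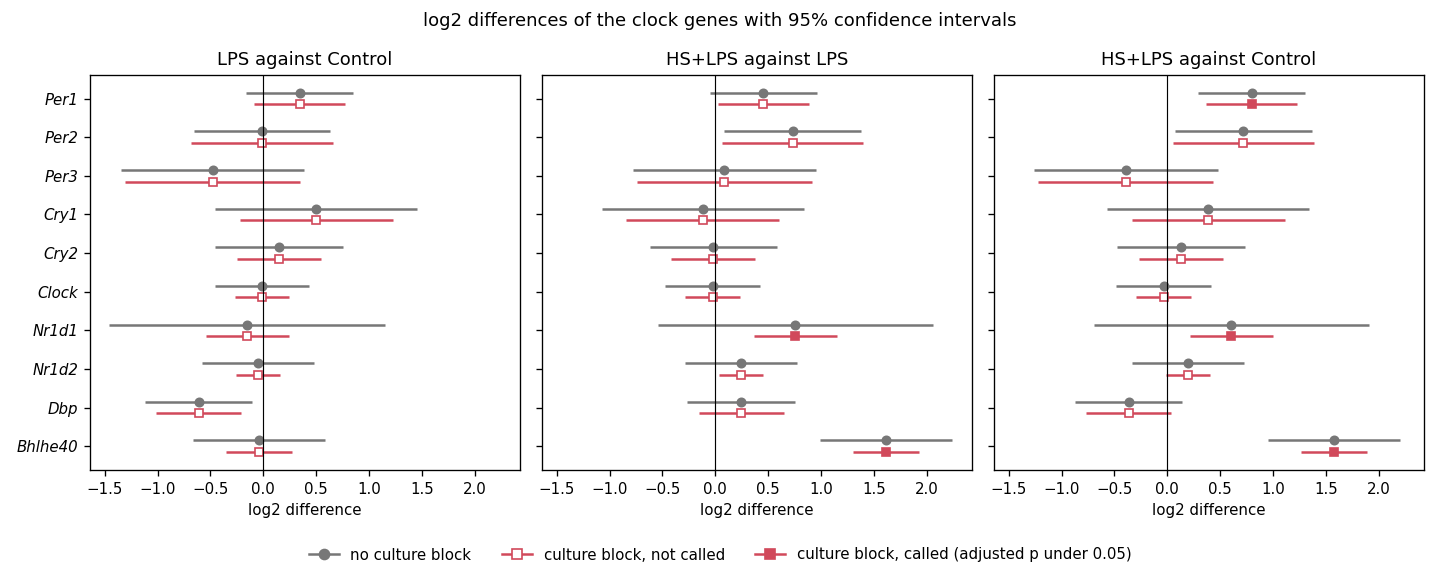
Log2 difference of each clock gene in the 3 comparisons, with 95% intervals, from the fit without the culture (grey circles) and with it as a block (red squares, filled where called); the vertical line is 0. Bhlhe40 lies at 1.62 and 1.58 in the comparisons with HS+LPS, Dbp lies at -0.61 for LPS against Control, and Clock lies between -0.035 and -0.011 in all 3.

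Clock, the activator subunit, had differences of -0.011, -0.024 and -0.035 log2 units in LPS against Control, HS+LPS against LPS and HS+LPS against Control. It read 219 and 168 in Control, 209 and 173 with LPS, and 191 and 183 with HS+LPS, and the groups overlapped. With the culture in the fit, the 95% intervals ran from -0.27 to 0.25 for LPS against Control, from -0.28 to 0.24 for HS+LPS against LPS and from -0.29 to 0.22 for HS+LPS against Control. Without the culture they were wider, at -0.46 to 0.44, -0.47 to 0.42 and -0.48 to 0.41 in the same order. Its 4 probe sets differed by -0.19 to 0.10 for HS+LPS against LPS. Quantile normalization turned the sign of its difference from LPS, to 0.047.

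LPS alone was followed by small differences in most clock genes. None of the 10 was called against Control in the fit without the culture, where 0.147% of all genes were called, and none with the culture, where 2.78% were. Without the culture 1 gene, Dbp, had an unadjusted p under 0.05, beside 629 of the 12917 genes tested. The median difference was -0.026 log2 units, beside -0.047 over all genes. In 4 genes the 2 LPS arrays did not overlap the 2 Control arrays (Cry1 and Per1 higher, Dbp and Per3 lower), beside 31.5% of all genes.

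Dbp, the D-box activator and a direct CLOCK and BMAL1 target, had the largest difference of the 10 under LPS. It read 116 and 137 in Control, 78.4 and 84.4 with LPS, and 114 and 82.4 with HS+LPS. Both LPS arrays lay under both Control arrays. The means were 126 ± 15.1, 81.4 ± 4.24 and 98.3 ± 22.5 (SD, n = 2). LPS against Control gave -0.61 log2 units (Control 1.53 times LPS; SE 0.21, unadjusted p = 0.026), which was not called, with adjusted p = 0.853 without and 0.136 with the culture. The dimmer Dbp probe set read 90.2 and 112 in Control, 39.7 and 57.9 with LPS, and 75.0 and 51.2 with HS+LPS. Its difference for LPS was -1.02, lower in both cultures as well. After heat shock the cultures parted: Dbp differed from LPS by 0.52 in culture 1 and by -0.033 in culture 2 (mean 0.25, adjusted p = 0.62). Dbp overlaps Sphk2, a sphingosine kinase gene, in the RefSeq gene table; the brightest Sphk2 probe set read 85.6, 64.1 and 63.4 in culture 1 and 68.3, 93.0 and 62.5 in culture 2 (Control, LPS, HS+LPS).

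HS+LPS against Control shares its HS+LPS arrays with one of the comparisons above and its Control arrays with the other, so it is not independent of them. None of the 10 genes was called without the culture, beside 0.178% of all genes. In that fit 3 of the 10 had an unadjusted p under 0.05, beside 2096 of the 12917 genes tested. With the culture, Bhlhe40, Per1 and Nr1d1 rose, 3 of 10, and none fell, beside 17.2% of all genes called, 5.09% as higher and 12.1% as lower. The median difference was 0.29 log2 units, beside -0.095 over all genes. In 4 genes the groups did not overlap (Bhlhe40, Per1 and Per2 higher, Dbp lower), beside 45.4% of all genes. Dbp differed by -0.37 (adjusted p = 0.462 without and 0.196 with the culture).

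**Figure D3:**
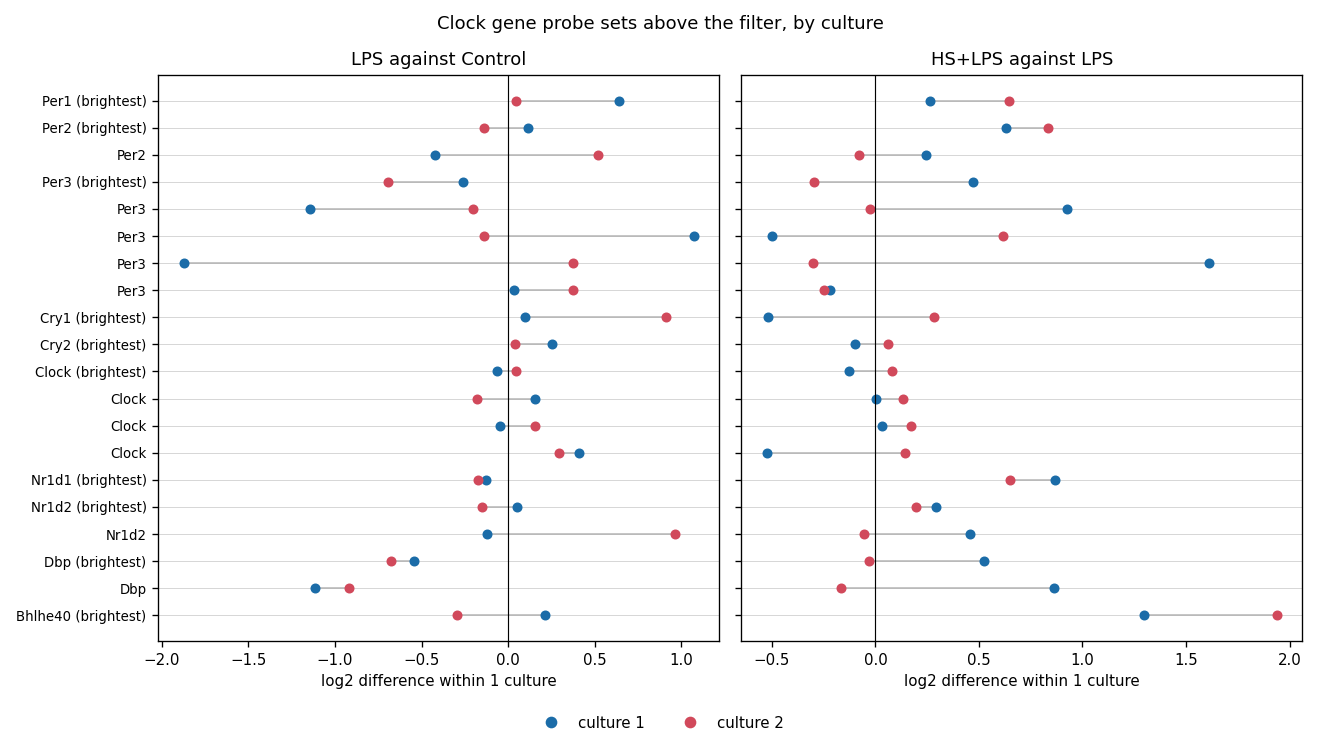
Log2 difference in each culture (blue, culture 1; red, culture 2) for every probe set of the clock genes that passed the filter on low values (20 of 22), for LPS against Control and for HS+LPS against LPS; the brightest of each gene is marked on the axis. For HS+LPS against LPS, Bhlhe40 lies at 1.30 and 1.94 and Cry1 lies on opposite sides of 0, and for LPS against Control both Dbp probe sets lie under 0 in both cultures.

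Of the 10 genes, 5 had a single probe set on the array (Per1, Cry1, Cry2, Nr1d1 and Bhlhe40), so their values have no check from another probe set. Noncoding genes overlap Bhlhe40 (0610040F04Rik), Per2 (Gm35591), Cry2 (D930015M05Rik) and Clock (Gm7467) in the RefSeq gene table, and the strand each probe set reads was not checked. The other genes had 17 probe sets, of which 15 passed the filter on low values. Level differed between the cultures for part of these genes, and culture cannot be told apart here from how its arrays were handled. Nr1d1, Nr1d2, Bhlhe40, Clock and Cry2 were higher in culture 1 in all 3 groups, by a mean of 1.00, 0.36, 0.37, 0.23 and 0.34 log2 units. Per1, Per2, Per3, Cry1 and Dbp were higher in culture 1 in only 1 group each, with mean differences of -0.042, -0.15, -0.002, -0.25 and 0.038.

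A list of 48 other genes of the clock was read beside the 10: loop partners, output factors, kinases and turnover factors, cofactors, input genes and cell cycle outputs. Of these, 41 were tested. Npas2 and Fbxl21 were too dim to pass the filter, and the other 5, the heat shock factor gene Hsf1 among them, were not analysed here. Without the culture, 0 of the 41 were called in any of the 3 comparisons, and 1, 7 and 7 had an unadjusted p under 0.05 for LPS against Control, HS+LPS against LPS and HS+LPS against Control, beside 629, 2165 and 2096 of the 12917 genes. With the culture, the counts were 1 higher for LPS against Control, 6 higher and 3 lower for HS+LPS against LPS, and 7 higher and 2 lower for HS+LPS against Control. Over all genes, 2.06% were higher and 0.72% lower for LPS against Control, and the shares called in either direction were 2.78%, 18.9% and 17.2% in the 3 comparisons. The partners' 9 of 41 against LPS and 9 of 41 against Control lie near these shares in either direction, while the 6 and 7 higher partners stand beside 6.32% and 5.09% of all genes, a difference that was not tested. The medians of the 41 were 0.011, 0.045 and 0.085 log2 units, beside -0.047, -0.049 and -0.095 over all genes.

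Arntl, which encodes the CLOCK partner BMAL1, read 149 and 130 in Control, 236 and 204 with LPS, and 203 and 204 with HS+LPS. All 4 LPS-treated arrays lay above both Control arrays. LPS against Control gave 0.64 log2 units (1.56-fold; adjusted p = 0.458 without the culture), and Arntl was the 1 clock partner that rose under LPS with the culture in the fit (adjusted p = 0.0156, over alternatives from 0.00711 to 1). Both of its probe sets were higher in both cultures. HS+LPS against LPS gave -0.10 (adjusted p = 0.793), and with all probe sets averaged 0.023. HS+LPS against Control gave 0.54 (adjusted p = 0.0119 with and 0.169 without the culture), and both probe sets were again higher in both cultures.

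Rora, the ROR receptor gene that acts opposite to REV-ERB on Arntl, read 141 and 103 in Control, 131 and 87.9 with LPS, and 201 and 151 with HS+LPS. Against LPS it rose by 0.68 log2 units with the culture in the fit (1.61-fold; adjusted p = 0.00531, over alternatives from 0.00223 to 0.671, and 0.29 without the culture). Of its 8 probe sets that passed the filter, 6 were higher in both cultures. Nfil3, the D-box repressor that opposes DBP, read 130 and 154 in Control, 122 and 145 with LPS, and 171 and 236 with HS+LPS. Its difference from LPS was 0.58 (1.5-fold; adjusted p = 0.00994 with and 0.245 without the culture, over alternatives from 0.0067 to 0.613). Csnk1e, a casein kinase that phosphorylates PER proteins, read 443 and 349 in Control, 448 and 312 with LPS, and 634 and 524 with HS+LPS. It differed by 0.62 (1.53-fold; adjusted p = 0.0026 with and 0.247 without the culture, over alternatives from 0.000536 to 0.629), and all 3 of its probe sets were higher in both cultures. Leaving out 1 array at a time moved these differences from LPS between 0.40 and 0.96 for Rora, 0.35 and 0.81 for Nfil3, and 0.36 and 0.88 for Csnk1e. The lowest values came without LPS of culture 2 for Rora and Csnk1e, and without HS+LPS of culture 2 for Nfil3. Tef, another D-box activator, and Csnk1d, the sister kinase, differed by 0.24 and 0.17 and were not called in either fit.

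**Figure D4:**
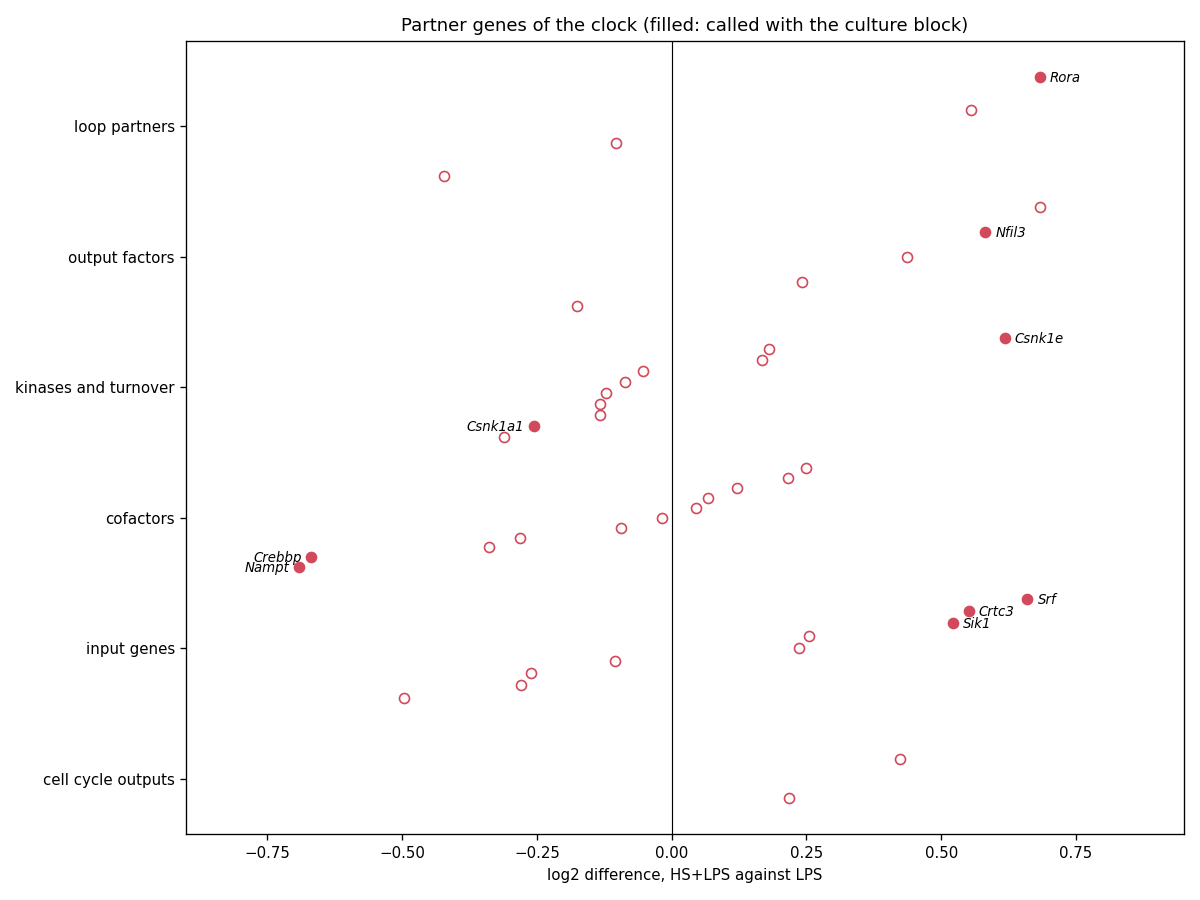
Log2 difference between HS+LPS and LPS for the 41 tested partner genes, grouped by role, with 0 as the vertical line. Filled points are the 9 genes called in the fit with the culture as a block, 6 to the right of 0 and 3 to the left; none was called without the culture.

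The other partners called for HS+LPS against LPS with the culture were singled out after their values were seen. Among input genes, Srf, Crtc3 and Sik1 were higher, by 0.66, 0.55 and 0.52 log2 units (adjusted p = 0.0126, 0.00825 and 0.0465 with the culture, and 0.13, 0.114 and 0.254 without it). SRF is a serum response factor, CRTC3 a coactivator of CREB and SIK1 a kinase that inhibits CREB coactivators. Among cofactors, Nampt, which makes the NAD precursor used by SIRT1, and Crebbp, a histone acetyltransferase, were lower and differed by -0.69 and -0.67 (adjusted p = 0.00255 and 0.00219 with the culture, 0.354 and 0.103 without it). The 3 probe sets of each that passed the filter were lower in both cultures. Csnk1a1 differed by -0.26 (adjusted p = 0.0361 with and 0.366 without the culture), but 2 of its 4 probe sets were higher on the mean, and averaging all probe sets gave 0.044. Nr3c1, the glucocorticoid receptor gene, was higher for HS+LPS against Control, by 0.37 (adjusted p = 0.0217 with and 0.286 without the culture).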

How the data were processed

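Gene expression was measured on 6 one-colour arrays. The values are the intensities the authors deposited, 1 per probe set and array. Their mean after trimming 2% at each end is 100 on every array, and the software that made them is not given in the sources used here. No further normalization was applied. Of 45101 probe sets, 34945 had 1 gene symbol, 932 several and 9160 none, and 64 controls were left out; all 10 clock genes matched the RefSeq gene table by Entrez number.

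Intensities were taken as log2(intensity + 3.37), the pseudocount being their 25th percentile. Probe sets with a mean under the 40th percentile (6.79 units) were left out, which kept 27022, and the brightest probe set per symbol gave 12917 genes. Fold changes on this scale understate those of dim genes. All 3 groups entered 1 fit (lmFit, then eBayes with trend, from limma 3.58.1 under R 4.3.3, with 3 residual degrees of freedom), and p-values were adjusted by Benjamini-Hochberg over all genes. The procedure was run on simulated data with known differences, read for HS+LPS against LPS only. How many of these it recovered is not reported here. The same number in the labels marks the same culture, and same-culture deviations from the group means correlated at 0.622, 0.535 and 0.568; the block fit has 2 residual degrees of freedom. Replicates correlated at 0.966 to 0.968. The members and lists were chosen with earlier results of these data known. Named are all 10 members, 8 partners (Arntl, Npas2, Rora, Nfil3, Tef, Csnk1d, Csnk1e, Hsf1), any partner called without the culture (0 were), and the 3 genes most like the member called or, with none called, that of lowest p for HS+LPS against LPS. The alternatives tried were 18: the culture block, quantile normalization, median centring, pseudocounts of 1 and 16, no filter, the mean of probe sets, eBayes without trend, each array left out, and 4 combinations with the block.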

Additional observations from a re-analysis of the deposited data

How the results depend on the processing

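With 2 cultures and 3 residual degrees of freedom the median SE of a difference over all genes was 0.226 log2 units, and 0.149 with the culture as a block (the pairing by culture), which limits what these arrays resolve. No called clock gene was lost, since none was called without the block. Over 540 refits of the 10 genes, 481 kept direction and side of the threshold, 28 passed it (25 with the block) and 31 turned sign; of 702 refits of the 13 partners named with values (the other 28 tested partners were refitted for the counts only), 588 kept both, 93 passed, all with the block, and 21 turned. The replicate block raised the clock genes called to 2 for HS+LPS against LPS and 3 for HS+LPS against Control, as did the block with quantile normalization, median centring or a pseudocount of 1 or 16, combinations added after seeing the data. Without the block, median centring gave 1 and 1, and a pseudocount of 16 gave 1 for HS+LPS against LPS. Partners called came to 1 for LPS against Control with the block in all 5 forms. For HS+LPS against LPS they came to 9 (11 with quantile normalization, 8 with median centring), and for HS+LPS against Control to 9 (10 and 7). The block changed no other call of a clock gene.

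Averaging probe sets turned Per2 (0.018), Clock (0.095), Nr1d2 (0.19) and Csnk1e (0.021) for LPS against Control, Arntl (0.023) and Csnk1a1 (0.044) for HS+LPS against LPS, and Clock (0.083), Tef (-0.015), Csnk1d (0.083) and Csnk1a1 (0.26) for HS+LPS against Control. Quantile normalization, with or without the block, turned Cry2 (0.091) and Clock (0.047) for HS+LPS against LPS and Clock (0.026) for HS+LPS against Control. The cause was not tested.

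Leaving out 1 array at a time gave these ranges where a sign turned. For LPS against Control they were Per2 -0.14 to 0.12, Cry2 -0.085 to 0.38, Clock -0.20 to 0.18, Nr1d1 -0.63 to 0.32, Nr1d2 -0.24 to 0.15, Bhlhe40 -0.42 to 0.34, Rora -0.44 to 0.12, Nfil3 -0.21 to 0.035, Csnk1e -0.33 to 0.19, Csnk1a1 -0.10 to 0.12, Crebbp -0.055 to 0.16, Sik1 -0.026 to 0.19 and Nr3c1 -0.013 to 0.28. For HS+LPS against LPS they were Per3 -0.24 to 0.42, Cry1 -0.64 to 0.41, Cry2 -0.25 to 0.21 and Clock -0.16 to 0.11. For HS+LPS against Control they were Cry1 -0.14 to 0.91, Cry2 -0.023 to 0.28, Clock -0.22 to 0.15, Nr1d2 -0.048 to 0.44, Tef -0.025 to 0.19, Csnk1d -0.069 to 0.010 and Nampt -0.58 to 0.031. A lone array left in a group was assumed to vary like the other groups.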
